A study of Mus musculus with 33 samples.

Results

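Ribosomal proteins build the cytosolic ribosome together with ribosomal RNA. The members described here are the autosomal genes of the cytosolic ribosomal proteins, chosen by gene symbol (Rpl and Rps names plus Rplp0, Rplp1, Rplp2 and Rpsa, without the Rps6k kinases) and by location on a numbered chromosome. The rule found 80 genes among 24391 in the count table, 48 of the large subunit and 32 of the small subunit, and used no measured value. They lie on 18 autosomes, 14 of them on chromosome 7. Fau, which encodes a ribosomal protein fused to a ubiquitin-like sequence, carries another kind of symbol and was not a member. Besides the ubiquitous proteins, the rule took in copies with restricted expression elsewhere, such as Rpl3l, Rpl10l, Rpl39l and Rps4l.

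The RNA came from mouse embryonic stem (ES) cells of a CAST/Ei × 129/Sv/Jae cross, labelled RepB or wildtype (WT), before differentiation (day 0) and at days 5, 6, 7, 8 and 10 of differentiation. RepB is named after Repeat B of the noncoding RNA Xist; neither the edit nor the allele that carries it is described. Both lines were cultured with LIF on irradiated fibroblasts as feeders, which were removed before the cells formed embryoid bodies in suspension and later attached to gelatin. Each genotype is 1 line with 1 library per day, 12 libraries in all, so there were no replicate cultures and the later days of a line served as its repeated samples. The p-values therefore measure how steady a value was along 1 time course per genotype, and say nothing of other lines or cultures. The other 21 of the 33 samples were not analysed here.

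Most ribosomal proteins are present in equal amounts in each ribosome, so cells make them in matched amounts, and their mRNAs are among the most abundant of growing cells. The mRNAs typically begin with a C followed by a run of pyrimidines, the terminal oligopyrimidine (TOP) motif, through which mTOR signalling and the RNA-binding protein Larp1 set their translation and stability. Surplus Rpl5 and Rpl11, bound to 5S RNA, inhibit Mdm2 and so raise p53. ES cells are known for a low rate of translation that increases as they differentiate.

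Levels are CPM, counts scaled to a common library size by the trimmed mean of M values (TMM). The shallowest library, RepB day 8, held 3594551 counts and the deepest, WT day 5, held 17773138, with TMM factors of 0.938 to 1.06. A count of 0 allows up to 3 counts, or 0.165 to 0.89 CPM. RepB libraries of days 5 to 10 were the shallower ones, with at most 6977752 counts against at least 7763633 in WT. The 8 ES cell markers summed to 6850 CPM in RepB and 5870 CPM in WT at day 0, and to 466 and 305 CPM at day 10. All 80 members passed the filter on low counts.

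Short stretches around the annotated starts show the TOP feature on genes that recur in the results. Promoter sequences were matched by symbol in RefSeq (GRCm38.p6) for 59 of the 80 members. Each line below holds 15 bases before and 15 from the annotated start on; capitals mark a pyrimidine run that begins with C, is at least 6 bases long and begins within 10 bases of the start. The first 5 genes rose after day 0 and hold such a run, Rpl23 and Rpl24 rose and hold none, and Rpl39l and Rpl10l fell.
Rpl35 (chr2:39005117-39005146, minus strand): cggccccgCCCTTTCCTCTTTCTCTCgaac
Rpl18 (chr7:45718056-45718085, plus strand): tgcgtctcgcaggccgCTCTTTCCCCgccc
Rps18 (chr17:33955651-33955680, minus strand): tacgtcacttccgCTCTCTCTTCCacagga
Rpl15 (chr14:18270972-18271001, minus strand): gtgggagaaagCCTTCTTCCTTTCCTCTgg
Rpl13a (chr7:45128731-45128760, minus strand): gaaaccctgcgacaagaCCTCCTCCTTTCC
Rpl23 (chr11:97782425-97782454, minus strand): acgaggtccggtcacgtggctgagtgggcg
Rpl24 (chr16:55966260-55966289, plus strand): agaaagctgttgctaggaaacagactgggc
Rpl39l (chr16:10170213-10170242, plus strand): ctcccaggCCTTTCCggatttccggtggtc
Rpl10l (chr12:66284387-66284416, minus strand): tttggcctccattttgcggctggcggtggg

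A run of this kind stood at the start of 33 of the 59 members, 55.9%, against 21.9% of the 27025 genes with a promoter entry. Among the members with an entry, 8 of the 17 that rose after day 0 held one, and 25 of the 42 others did. In the window from 250 bases before to 50 after the start, CCGGAAG, searched on both strands and the core of sites bound by Ets-family factors, was found in 25 of 59 members (42.4%) and in 9.93% of all genes. AAGATGGC, searched on both strands and part of the motif of the factor Yy1, was found in 6 members (10.2%) and in 3.19% of all genes. TATAA, also on both strands, was found in 15 members (25.4%) and in 28.0% of all genes. A match is only a match of letters, and RefSeq starts need not be the starts used in these cells. Below, capitals mark CCGGAAG close to the start of Rpl11, which rose after day 0, and of Rps3a1 and Rpl26, which did not pass that test.
Rpl11 (chr4:136053379-136053408, minus strand): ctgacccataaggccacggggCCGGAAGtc
Rps3a1 (chr3:86142654-86142683, minus strand): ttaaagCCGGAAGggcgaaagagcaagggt
Rpl26 (chr11:68901551-68901580, plus strand): ctcgcggcaacttacagaaCCGGAAGtcgc

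Together the 80 genes took a larger share of the library after day 0 in both lines. In RepB they made up 1.32% of all counts at day 0, then 2.05%, 2.09%, 1.75%, 1.73% and 1.36% at days 5, 6, 7, 8 and 10. The WT share was 1.21% at day 0, then 1.86%, 1.80%, 1.5%, 2.26% and 1.48%. All 10 later libraries lay above both day 0 libraries, although RepB at day 10 came close to its own day 0. Exact Clopper-Pearson 95% intervals, which cover counting error only, were at most 1.34% to 1.37% at RepB day 10 and 1.31% to 1.32% at RepB day 0. The mean over days 5 to 10 was 1.79% ± 0.297 in RepB and 1.78% ± 0.32 in WT (SD, n = 5 days each), 1.36 and 1.47 times day 0 of the same line. With 1 library per line at day 0 this ratio has no test. The 5 most abundant genes, among them Rpl4, Rpl8, Rps3 and Rps15, held 39.5% to 45.6% of the members' counts in each library. The autosomal genes of 77 mitochondrial ribosomal proteins, which serve the separate ribosome of mitochondria, took 0.306% (RepB day 10) to 0.495% (WT day 8) of counts.

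**Figure D1:**
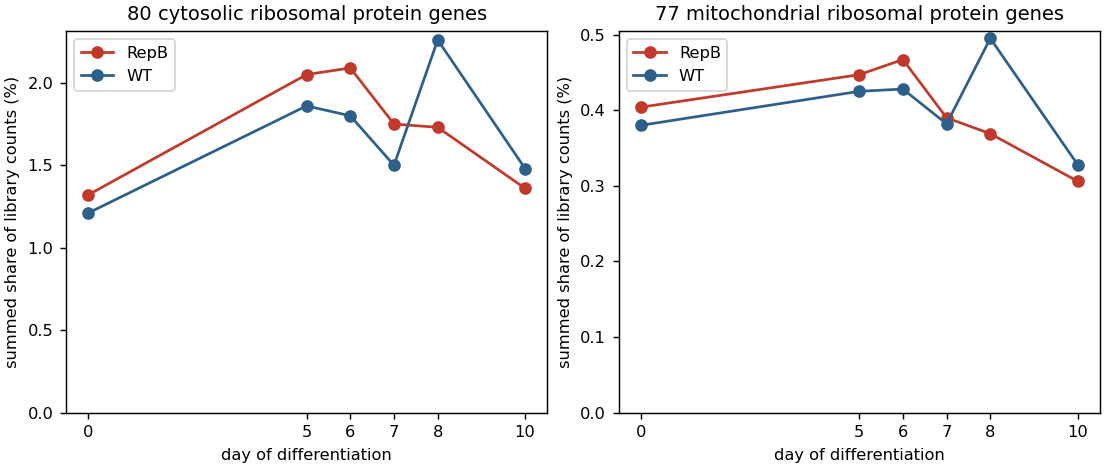
Summed share of library counts (y axis, percent) by day of differentiation (x axis), 1 point per library, for the 80 cytosolic (left) and 77 mitochondrial ribosomal protein genes (right); RepB in red, WT in blue. The cytosolic share peaked at 2.09% on day 6 in RepB and at 2.26% on day 8 in WT, a day on which RepB stood at 1.73%.

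Against day 0, Rpl35 and Rpl23 were among the largest rises over days 5 to 10, and the largest falls were those of the paralog genes Rpl10l, Rpl3l and Rpl39l. Of 80 members, 21 rose, 26.2%, where 14.0% of the 15179 genes tested rose, and 4 fell, 5%, where 15.2% of all genes fell (edgeR quasi-likelihood test with genotype and stage as terms, adjusted p under 0.05). The median log2 change was 0.48 over the members and 0.0727 over all genes. Above 0 lay 61 members and below 0 lay 19, where 53.6% of all genes lay above 0. Of the large subunit 14 rose and 4 fell (median log2 0.492), and of the small subunit 7 rose and 0 fell (median 0.478); by DESeq2 and by limma-voom 5 members fell, Rps4l being the fifth. Taken gene by gene without a test, all 10 later libraries lay above both day 0 libraries for 24 members, 30%, against 17.8% of all genes. They lay below both for 6 members, 7.5%, against 20.4%. In bulk RNA, more transcript per cell and more cells that hold it cannot be told apart.

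With the day as a block, 38 of the 80 members rose and 12 fell, where 31.7% of all genes rose and 32.3% fell; that fit leaves the spread between days out of the error and keeps that of the difference between the lines. Without day 10 the count of rises was 32, where 17.0% of all genes rose. With each line alone, where 1 day 0 library faced 5 later ones, it was 1 in RepB and 2 in WT (Rpl23 and Rpl24), and only 20 and 60 of all genes rose.

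Markers of other cells moved along the same axis. The 8 fibroblast and feeder markers summed to 814, 53.3, 114, 699, 2970 and 14100 CPM in RepB at days 0, 5, 6, 7, 8 and 10, and to 690, 64.8, 93.9, 511, 1300 and 9320 CPM in WT. Both sums were thus higher at day 0 than at days 5 and 6, and highest at day 10. The 8 markers did not move together. By edgeR 0 rose against day 0 and 1 fell, where 14.0% and 15.2% of all genes did. It was Thy1, with 121 and 101 CPM at day 0 in RepB and WT and means of 15.7 and 13.4 CPM later. Postn had 9.33 and 8.76 CPM at day 0 and means of 520 and 347 CPM later. Along days 5 to 10, 7 rose and 1 fell, where 27.1% and 25.4% of all genes did. The test against day 0 counts such trends as error, and Postn had a log2 of 5.54 ± 4.05 SE there. The 7 muscle markers summed to 14.9 to 247 CPM in RepB and 10.9 to 545 CPM in WT. At most 1 marker of each of these lists was at 0 in a library, and their part in the ribosomal protein values was not tested.

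Rpl35, a large-subunit protein near the exit of the peptide tunnel (first listed exon chr2:38857101-38857285, mm9), had the largest fitted rise. Its RepB levels were 5.19 CPM at day 0, then 53.5, 123.6, 56.2, 102.9 and 34.0 CPM in order of day. The WT levels were 16.5 CPM at day 0, then 53.6, 161, 77.2, 124.4 and 81.8 CPM. All later libraries lay above day 0 of both lines, and day 6 was the highest in each line (log2 3.11 ± 0.62 SE, edgeR adjusted p = 0.0039).

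Rpl23, a large-subunit protein that also binds Mdm2, had 29.9 CPM at day 0 and 138, 213, 189.5, 49.5 and 112 CPM later in RepB. In WT it had 30.3 CPM at day 0 and 204, 186, 143, 242 and 151 CPM later. The day 0 values of the lines were close, and RepB day 8 was the low one among the later libraries (log2 2.42 ± 0.47, edgeR adjusted p = 0.00351).

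Other rises were smaller and even across the lines. Rpl18, a large-subunit protein, had 75.2 CPM at day 0 and 226, 246, 206, 188 and 127 CPM later in RepB, and 61.9 CPM and then 222, 202, 171, 267 and 187 CPM in WT. Day 10 was the lowest later library in RepB and day 7 in WT, both above day 0 (log2 1.57 ± 0.25, edgeR adjusted p = 0.00119). Rpl32, also of the large subunit, had 245 CPM at day 0 and 531, 534, 663, 527 and 563.5 CPM later in RepB, and 219.7 CPM and then 591, 560.0, 496, 825 and 553 CPM in WT. It kept this level through day 10 in both lines (log2 1.33 ± 0.20, edgeR adjusted p = 0.000814).

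Rpl24, Rps18 and Rpl11 moved less evenly. Rpl24, of the large subunit, had 15.6 CPM at day 0 and 34.1, 65.3, 41.0, 16.9 and 24.8 CPM later in RepB, against 16.4 CPM and then 56.5, 55.1, 46.4, 56.7 and 49.5 CPM in WT. RepB day 8, from 57 counts, barely exceeded day 0 (log2 1.45 ± 0.40, edgeR adjusted p = 0.0192), and the call was lost without day 7. Rps18, of the small subunit, differed between the lines at day 0, with 85.6 CPM in RepB and 40.0 CPM in WT. Its later libraries ran from 126 to 191 CPM in RepB and from 105 to 202 CPM in WT, above both day 0 values (log2 1.38 ± 0.29, edgeR adjusted p = 0.00508). Rpl11, which restrains Mdm2 together with Rpl5, ran from 59.1 to 134.4 CPM in RepB and from 66.4 to 152 CPM in WT after day 0, against 32.7 and 44.8 CPM at day 0 (log2 1.35 ± 0.37, edgeR adjusted p = 0.0195). Its partner Rpl5 had a log2 of 0.55 ± 0.26 and did not pass (edgeR adjusted p = 0.123).

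Another 13 that rose were Rpl13, Rpl19, Rps14, Rps24, Rpl22, Rps9, Rpl8, Rpl15, Rps15, Rpl13a, Rpl41, Rps3 and Rpl4, with log2 changes of 0.52 (Rpl4) to 1.20 (Rpl13). They include the abundant members: Rpl8 averaged 1906 ± 260 CPM after day 0 (SD, n = 10) against 1156 CPM at day 0 (n = 2), and Rpl4 2350 ± 365 CPM against 1633 CPM. Their changes were modest, at 0.72 ± 0.18 and 0.52 ± 0.17 on the log2 scale, and yet all 10 later libraries lay above both day 0 libraries. The calls of Rps15, Rpl13a, Rps3 and Rpl4 were each lost without day 6, without day 7 and with library totals alone for scaling, and those of Rpl19 and Rpl41 without day 6.

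Proteins of the ribosomal stalk, which recruits elongation factors, did not pass the test against day 0. Rplp0 had 544 CPM at day 0 and 610.1, 808, 591, 631 and 416 CPM later in RepB, and 412 CPM and then 613.5, 665, 605.5, 825 and 469 CPM in WT. The groups overlapped, with RepB day 10 under RepB day 0 (log2 0.39 ± 0.24, edgeR adjusted p = 0.245). It passed with the day as a block (log2 0.37, edgeR adjusted p = 0.0157) and without day 10 (0.51, 0.0492). Rplp1 had a log2 of 0.05 ± 0.23 (edgeR adjusted p = 0.877) and Rplp2 of 0.34 ± 0.36 (edgeR adjusted p = 0.5). Rpsa, which is also known as a laminin receptor, had a log2 of 0.49 ± 0.44 (edgeR adjusted p = 0.421), and Rpl27a one of 0.47 ± 0.32 (edgeR adjusted p = 0.284). Rpsa spanned 4.38-fold among the later libraries, with its lowest value, 73.3 CPM, at RepB day 10.

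**Figure D2:**
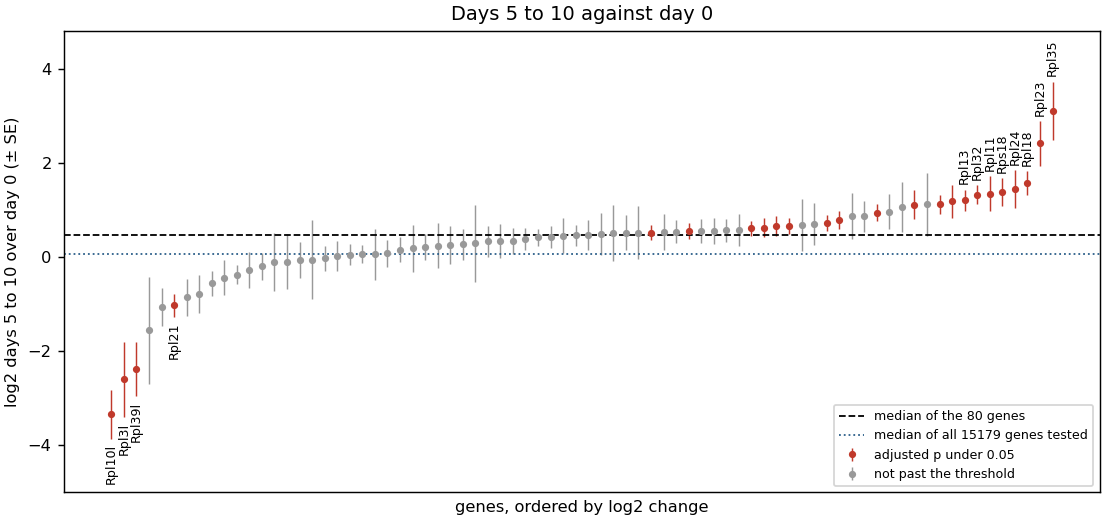
Fitted log2 change of days 5 to 10 over day 0 (y axis, ± SE, 12 libraries) for the genes drawn, in order of size (x axis); red points pass an adjusted p of 0.05, grey ones do not. The dashed line, the median of the 80 genes, lies at 0.48, and the dotted line, the median of all 15179 genes, at 0.0727.

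The rise had shrunk by day 10. The median member stood above day 0 of its line by 0.558, 0.58, 0.329, 0.296 and -0.173 (log2 of CPM + 0.5) in RepB at days 5, 6, 7, 8 and 10, and by 0.629, 0.547, 0.326, 0.837 and 0.245 in WT. Medians over all genes lay between -0.0338 and 0.0385 on those days. At day 10, 36 of 80 members were above day 0 in RepB and 53 in WT. Ribosomal protein transcripts are short: 60 members are at most 1000 bases long. In 593 other genes of at most 1000 bases the median was 0.152, 0.245, 0.0538, 0.143 and 0.0504 in RepB and 0.213, 0.143, 0.0634, 0.552 and 0.178 in WT. In 3816 other genes over 4000 bases it was -0.22 at WT day 8, the lowest of any library. The members were thus above other short genes on each day except RepB day 10, and the short genes had their highest median at WT day 8; the part of transcript length was not tested.

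Along days 5 to 10 the slope was below 0 for 70 members and above 0 for 10, where 49.6% of all genes lay above 0. The median was -0.0905 log2 per day against -0.00232 over all genes. By edgeR 16 members fell, 20%, where 25.4% of all genes fell, and 0 rose, where 27.1% of all genes rose; DESeq2 and limma-voom also gave 0 rises. An unadjusted p under 0.05 in either direction was found for 24 members, 30%, against 58.2% of all genes. The steepest falls were those of Rpl3l (-0.73 ± 0.21 log2 per day, edgeR adjusted p = 0.0106), Rpl39l (-0.54 ± 0.09, 0.000617), Rpl30 (-0.53 ± 0.15, 0.0109), Rpl36 (-0.47 ± 0.07, 0.000382) and Rpl10l (-0.46 ± 0.09, 0.00154). The Rpl3l call was lost by DESeq2, by limma-voom and without day 5, and the Rpl30 call without day 5 and without day 10. Rpl30 had few counts, with 16, 13, 7, 6 and 0 in RepB along these days and 66, 34, 8, 17 and 4 in WT. Rpl36, a large-subunit protein, had 42.4, 16.4, 11.8, 10.1 and 8.08 CPM in RepB at days 5 to 10, and 32.0, 40.6, 28.7, 14.5 and 7.84 CPM in WT. Both lines ended at their lowest value. The count of falls was 7 without day 10, where 2699 of all genes fell, against 3855 with all days. It was 35 without day 8 and 32 without the WT day 8 library alone, where 4040 and 4092 of all genes fell.

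**Figure D3:**
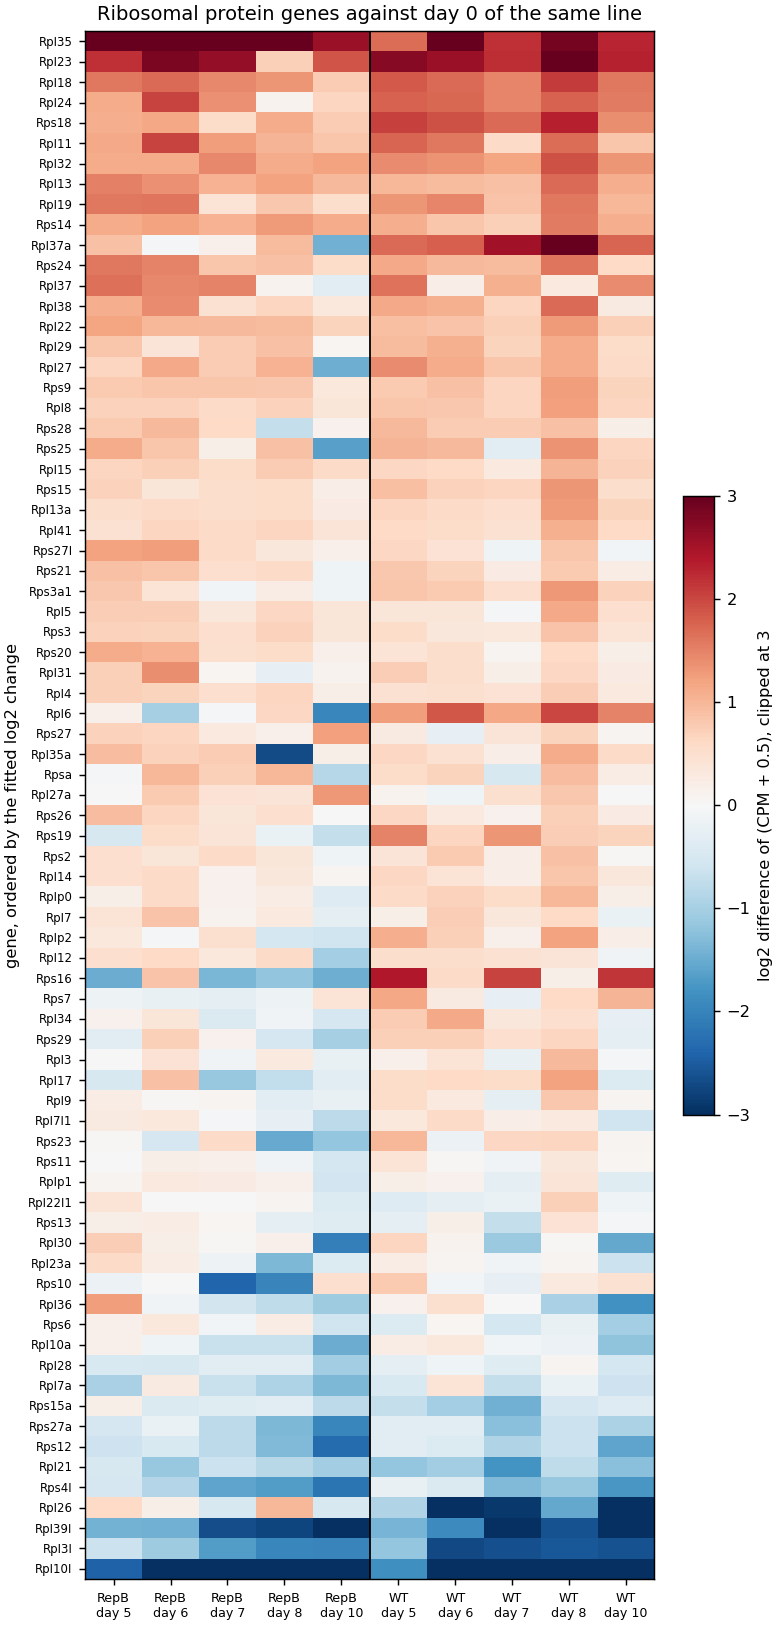
Log2 difference of (CPM + 0.5) from day 0 of the same line, colours clipped at 3, for the genes drawn (rows, ordered by fitted change) and each later library (columns, RepB left of WT). Rows at the top, such as Rpl35 and Rpl23, are red throughout, the bottom rows Rpl10l, Rpl3l and Rpl39l are blue throughout, and single cells such as Rpl35a at RepB day 8 stand apart from their row.

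Of the 6 listed paralog genes, Rpl10l, Rpl3l and Rpl39l fell. Rpl10l, a retrogene copy of X-linked Rpl10 that is needed in mouse male meiosis (single exon, chr12:67384366-67385388, mm9), had 47.8 CPM at day 0 and 8.48, 5.03, 3.46, 2.67 and 2.23 CPM later in RepB. WT had 26.2 CPM at day 0 and 6.91, 2.71, 1.35, 1.29 and 1.22 CPM later. Each later library lay below both day 0 libraries (log2 -3.34 ± 0.52, edgeR adjusted p = 0.00104). Days 7, 8 and 10 rest on 15, 9 and 8 counts in RepB and 15, 10 and 12 in WT, too few to order these days. The parent gene Rpl10 did not pass (log2 -1.17, edgeR adjusted p = 0.136). Per kilobase, Rpl10l made up 55.5% of the pair in RepB and 35.1% in WT at day 0, and 21.3% and 12.4% at day 10. Rpl10 was counted at only 6.41 to 42.6 CPM. How reads matching several places were counted is not given, so shares of the pair are uncertain. The lowest shares were 5.93% on RepB day 7 and 8.11% on WT day 8. They rest on the same few Rpl10l counts, so they do not order days 7, 8 and 10. On RepB day 7 the parent Rpl10 was also at 42.6 CPM, its highest level in any library.

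Rpl39l, the autosomal copy of X-linked Rpl39 known from the mouse testis, followed the same course. RepB had 18.7 CPM at day 0 and 6.64, 6.57, 2.54, 2.37 and 1.67 CPM later, and WT had 13.7 CPM and then 4.88, 3.25, 1.17, 1.81 and 0.509 CPM. Every later library was below both day 0 values, the lowest from 5 counts (log2 -2.38 ± 0.58, edgeR adjusted p = 0.0112). Rpl3l, which replaces Rpl3 in heart and skeletal muscle, had few counts after day 0. It had 40 counts at day 0 and 8, 7, 2, 1 and 1 counts later in RepB, and 57 counts and then 21, 1, 1, 1 and 1 counts in WT. It was lower in all later libraries (edgeR adjusted p = 0.0293), a call lost without day 7 or day 8, and the size of the fall is uncertain at these counts. Its parent Rpl3 had a log2 of 0.21 ± 0.27 (edgeR adjusted p = 0.586).

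Rpl21, a large-subunit protein, was the only other member that fell, with 16.6, 10.5, 15.0, 13.1 and 11.1 CPM after 23.5 CPM at day 0 in RepB and 10.2, 11.2, 6.37, 13.5 and 9.46 CPM after 23.4 CPM in WT (log2 -1.02 ± 0.25, edgeR adjusted p = 0.0107). Rps4l, a single-exon autosomal copy of X-linked Rps4x (chr6:148303178-148304118, mm9), was abundant. It had 718 CPM at day 0 and 510.0, 391, 239, 224 and 156 CPM later in RepB, and 489.9 CPM and then 422, 360, 196, 222 and 145 CPM in WT. The groups overlapped, because RepB day 5 lay above WT day 0, and the test against day 0 was missed (log2 -1.06 ± 0.40, edgeR adjusted p = 0.0678). The fall along days 5 to 10 passed (-0.32 ± 0.04 log2 per day, edgeR adjusted p = 5.69e-05).

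Other paralog pairs behaved differently. Rpl22, which also regulates RNA in T cells, rose (log2 0.94 ± 0.18, edgeR adjusted p = 0.00312), with 375 ± 45.8 CPM in RepB and 365 ± 63.6 CPM in WT after day 0 (SD, n = 5 days each) against 192 and 194 CPM at day 0. Its paralog Rpl22l1 had 4.46 to 15.6 CPM after day 0 and a log2 of 0.02 ± 0.32 (edgeR adjusted p = 0.96). Rps27l, a p53 target, stood at 51.2 to 123 CPM, while its parent Rps27 was counted at only 2.17 to 6.13 CPM. Neither passed against day 0 (log2 0.58, edgeR adjusted p = 0.21, and log2 0.52, edgeR adjusted p = 0.312), but Rps27l passed with the day as a block (log2 0.55, edgeR adjusted p = 0.0254). Rpl7l1, whose yeast homolog acts in ribosome assembly, did not pass against day 0 (log2 0.08 ± 0.29, edgeR adjusted p = 0.863) but fell along days 5 to 10 (-0.21 ± 0.04 log2 per day, edgeR adjusted p = 0.000856), a call lost without day 10. Rpl7 itself had a log2 of 0.34 ± 0.27 (edgeR adjusted p = 0.352), and passed with the day as a block (0.31, edgeR adjusted p = 0.0318).

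No member passed the test of RepB against WT over days 5 to 10. The edgeR test with days as blocks called 0 higher and 0 lower, where 1.51% and 0.771% of all genes were called, and DESeq2 and limma-voom also gave 0 in each direction. An unadjusted p under 0.05 was found for 22 members, 27.5%, against 15.0% of all genes. The median log2 RepB/WT was -0.0921, with 30 members above 0 and 50 below, where 49.5% of all genes lay above 0. The difference less that at day 0 also gave 0 and 0 calls by each of the 3 tools, where 0.0198% and 0.0132% of all genes were called. There 7 members had an unadjusted p under 0.05, against 8.86% of all genes. RepB lay above WT on all 5 days for 6 members (7.5%, against 7.14% of all genes) and below on all 5 for 4 (5%, against 7.48%). The smallest adjusted p values were those of Rpl37a, at 31.3 ± 16.6 CPM in RepB and 58.1 ± 30.1 CPM in WT (log2 -0.88 ± 0.24, edgeR adjusted p = 0.0832), Rpl10l (0.76 ± 0.21, 0.0895) and Rpl39l (0.81 ± 0.23, 0.0955). At day 0 Rpl37a had 24.96 CPM in RepB and 11.22 CPM in WT, Rpl10l 47.8 and 26.2 CPM, and Rpl39l 18.7 and 13.7 CPM. Less day 0, their log2 differences were -2.035, -0.113 and 0.353 in that order. Of the 8 ES cell markers, 4 were higher in RepB over days 5 to 10 and 0 lower by edgeR (median log2 0.449). The part of these markers in the Rpl10l and Rpl39l values was not tested. Without the low-count filter 1 member was higher (Rpl10l) and 6 were lower, where 1.75% and 1.21% of the 20027 genes then tested were. Without the day term 0 members and 0 of all genes were called.

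Split by day, the sign of the difference between the lines varied. The median log2 RepB/WT over members was 0.0769 at day 0, 0.104, 0.116 and 0.242 at days 5, 6 and 7, and -0.388 and -0.212 at days 8 and 10. RepB was below WT for 71 of 80 members at day 8 and 55 at day 10, but only for 26 to 33 on the earlier days. Medians over all genes were 0.00136 at day 8 and -0.0147 at day 10. At day 8 the 593 other short genes were also lower in RepB, with a median of -0.32, and the 3816 long genes were higher, at 0.264. At day 10 other short genes stood at -0.0623. Single days rest on 1 library per line and have no test; the day 8 pair holds the shallowest RepB library. Leaving out day 8 moved the median over days to 0.0153 from -0.0921.

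**Figure D4:**
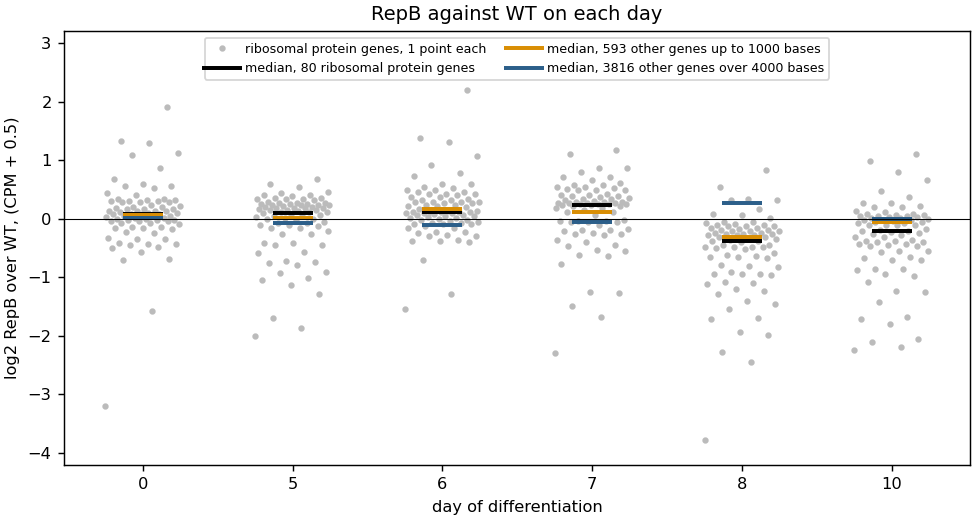
Log2 RepB over WT of (CPM + 0.5) (y axis) on each day (x axis); grey points are the 80 genes, and bars the medians of these genes (black), 593 other genes up to 1000 bases (orange) and 3816 other genes over 4000 bases (blue). The black bar falls to -0.388 at day 8, next to the orange one at -0.32 and apart from the blue one at 0.264.

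Levels differed widely between the members. Per kilobase of exon, the mean over the 12 libraries ran from 0.565 CPM for Rpl3l to 2066 CPM for Rpl8, a 3660-fold range with a median of 83.6. Rpl8, a protein near the peptidyl transferase centre, Rpl4 and Rps15 were among the 4 highest, and the 4 lowest were Rpl3l, Rpl26, Rpl30 and Rpl29. Ubiquitous proteins were among those counted at low levels. Rpl26 had 3, 3, 2, 0, 3 and 0 counts in RepB at days 0, 5, 6, 7, 8 and 10, and 105, 53, 1, 4, 13 and 1 counts in WT, so the lines lay apart at days 0 and 5. Rpl30 had at most 3.62 CPM in any library. In all, 14 members were under 10 CPM per kilobase and 14 over 500. By symbols that add -ps to the gene's own, with pseudogenes under other symbols not counted, RefSeq names 306 pseudogenes after these genes. The median level was 163 CPM per kilobase for the 20 members with no such pseudogene, 85.0 for the 37 with 1 to 4, and 47.6 for the 23 with at least 5 (Spearman rho -0.35 across 80 genes, which are not independent replicates). How reads matching several places were counted is not given in the sources used here, so levels of genes with near-identical copies are uncertain.

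Some members also jumped between neighbouring libraries. Rps16, of the small subunit, had 26.4, 9.04, 48.4, 9.91, 11.3 and 9.19 CPM in RepB at days 0, 5, 6, 7, 8 and 10, and 6.70, 37.7, 10.2, 28.9, 7.61 and 31.2 CPM in WT. High and low days alternate in WT, while in RepB days 0 and 6 stood above the rest. Rpl35a, of the large subunit, had 4.75 CPM at RepB day 8, from 16 counts, and 37.2 to 71.5 CPM in the other later libraries. Rps16, Rpl35a and the equally uneven Rpl6 were picked after their values were seen.

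The allelic counts add a second readout. The deposited table splits part of the counts by allele into cas and mus columns, taken to mean the CAST/Ei and the 129/Sv/Jae allele. Allelic counts were 38.7% to 42.0% of the members' counts and 25.5% to 26.7% of all counts, and 50 members had at least 20 in every library. Whole chromosomes differed: the median cas share of other genes was 48.3% to 57.6% on chromosomes 5, 7, 8, 9 and 13 and at most 7.5% on each of the other autosomes. Among the 50 members, 15 had a cas share under 5% in every library, 8 one of 25% to 75%, and 2, among them Rpl5, one over 75%.

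Of the 50 members, 18 (36.0%) had a mean cas share after day 0 over 25 points away from the median of their chromosome, against 16.3% of 6330 other genes, a description with no test. The genes below were picked after their shares were seen. On chromosome 11 (median of other genes 4.2%) Rpl19 had a mean cas share of 87.3% and Rpl38 one of 82.6% after day 0. Rps14 on chromosome 18 (median 0.746%) had 69.2%, Rpl37 on chromosome 15 (0.834%) 67.7%, Rpl24 on chromosome 16 (0.624%) 54.4% and Rpl37a on chromosome 1 (0.7%) 45.9%. Other genes on these chromosomes held few cas counts, so such shares are not shown to come from a CAST/Ei allele of the gene. How reads from near-identical copies were split by allele is not given, and their part in these shares was not tested. RefSeq names 12 pseudogenes after Rpl19 but 0 after Rps14 and Rpl24. Copies under other symbols were not counted, so a 0 does not show that a gene has none. In the other direction, Rpl13 on chromosome 8 (57.6%) had 0.89%, Rpl14 on chromosome 9 (48.7%) 0.32%, and Rpl28 and Rps9 on chromosome 7 (48.3%) 1.01% and 4.26%. Rps3 and Rpl13a, also on chromosome 7, had steady shares of 63.9% ± 0.644 and 50.9% ± 1.51 (SD, n = 10 libraries). The cas share spanned over 25 points between libraries for 12 of the 50 members, against 6.3% of 6330 other genes.

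**Figure D5:**
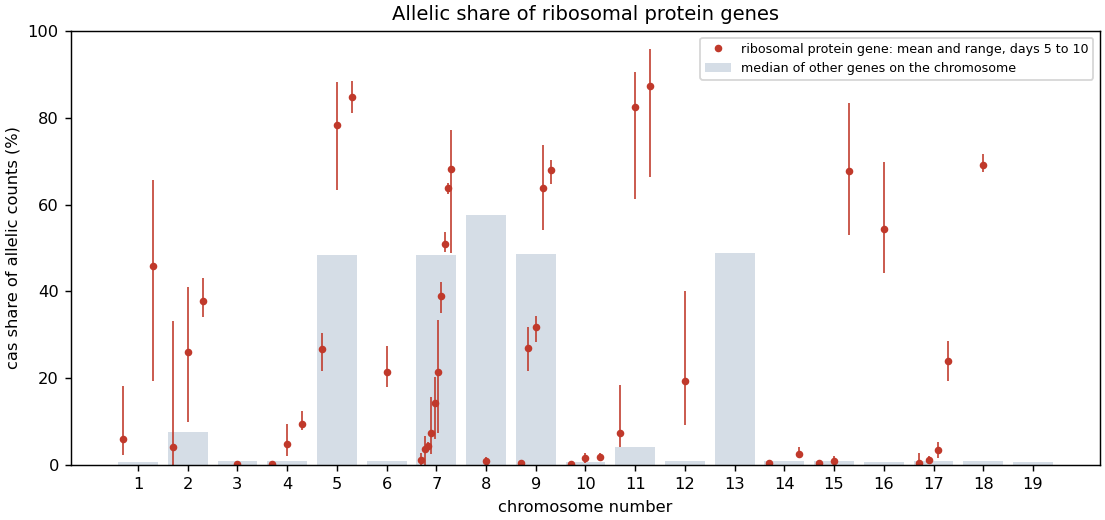
Cas share of allelic counts (y axis, percent) of members with at least 20 allelic counts in every library, by chromosome number (x axis); red points are means and lines ranges over the 10 libraries of days 5 to 10, and bars the median of other genes on that chromosome. Rpl19 and Rpl38 stand at 87.3% and 82.6% over a bar of 4.2% on chromosome 11, and Rpl13 at 0.89% under a bar of 57.6% on chromosome 8.

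Shares of 8 members lay to one side of day 0 in all later libraries. The cas share was above both day 0 libraries in all 10 later ones for 3 of the 50 members (Rplp1, Rpl24 and Rpl15), where 4.36% of 6380 genes were, and below both for 5 (Rpl23, Rps14, Rpl32, Rps9 and Rps15a), where 3.87% were. Rplp1 had cas shares of 21.1% at day 0 and 34.3%, 33.4%, 32.8%, 28.2% and 32.1% later in RepB, and of 18.1% and then 32.5%, 30.9%, 34.4%, 28.6% and 29.5% in WT. The lowest later share had an exact 95% interval of 24.9% to 31.7%, and the higher day 0 share one of 19.7% to 22.5%. For Rpl24 the shares were 23.4% at day 0 and 46.4% to 69.8% later in RepB, and 28.4% and 44.3% to 58.3% in WT, from as few as 34 allelic counts. Rps15a went the other way, with 22.6% at day 0 and 2.67% to 15.6% later in RepB, and 28.9% and 2.39% to 10.8% in WT. Rpl15 and Rps14 moved less. Rpl15 had 0.171% and 0.0% at day 0 in RepB and WT, and 0.185% to 0.598% later, and Rps14 had 73.4% and 74.0%, and 67.5% to 71.7% later. No test was made of these shares.

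Genes that work with the ribosomal proteins were read from lists. Of 46 factors of ribosome biogenesis, 0 rose and 0 fell against day 0 by edgeR (median log2 0.033), where 14.0% and 15.2% of all genes did. Along days 5 to 10, 45 of them fell (97.8%, where 25.4% of all genes fell), with a median of -0.245 log2 per day. The test against day 0 counts trends along the later days as error, so 0 calls there do not show a lack of change. Ddx21, a nucleolar helicase, averaged 536 CPM in RepB and 479 CPM in WT after day 0, and fell along the days by 0.49 log2 per day (edgeR adjusted p = 5.25e-06). Nucleolin (Ncl) fell by 0.27 per day (6.36e-05). Of 13 RNA polymerase I genes, which make ribosomal RNA, 0 rose and 1 fell against day 0 (7.69%, where 15.2% of all genes fell). It was the initiation factor Rrn3 (log2 -1.04 ± 0.28, edgeR adjusted p = 0.0156). Along the days 9 of the 13 fell (69.2%, where 25.4% of all genes fell). Of 8 noncoding hosts of small nucleolar RNAs, 0 changed against day 0 and 6 fell along the days (75%, where 25.4% of all genes fell).

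Of 19 other mRNAs of the TOP class, 4 rose (21.1%, where 14.0% of all genes did) and 0 fell against day 0 by edgeR (median log2 0.345). They were Eef1b2, an elongation factor subunit (0.76 ± 0.20, adjusted p = 0.0142), Nap1l1, Gnb2l1, which encodes the small-subunit protein Rack1, and Eif4b, while the elongation factor genes Eef2 (0.34 ± 0.14, edgeR adjusted p = 0.0835) and Eef1a1 (0.38 ± 0.17, 0.114) did not pass. Of 77 mitochondrial ribosomal protein genes, 11 rose, 14.3% and so close to the 14.0% of all genes (median log2 0.164). Another 2 fell, Mrpl24 and Mrps5 (2.6%, where 15.2% of all genes fell). The X-linked genes Rpl10, Rpl39, Rps4x and Rpl36a gave 0 calls of 4 in either direction, with a median of -0.375. In the mTOR and Larp1 list of 15 genes the kinase gene Rps6kb1 and Rheb rose (13.3%, close to the 14.0% of all genes). Another 4 fell (26.7%, where 15.2% of all genes fell): Mtor, Tsc2, Eif4e and the translation repressor Eif4ebp2 (log2 -0.73 ± 0.14, edgeR adjusted p = 0.0035). In the Myc family list of 9 genes 0 rose and 4 fell (44.4%, where 15.2% of all genes fell). These were the Myc partner Max and the Myc antagonists Mnt, Mxi1 and Mxd3. Myc, an activator of ribosome genes, averaged 98.4 CPM in RepB and 117 CPM in WT after day 0 against 41.5 and 15.2 CPM. It did not pass (log2 1.93 ± 0.69, edgeR adjusted p = 0.0545). Of 13 p53 targets 3 rose (Ccng1, Phlda3 and Perp, 23.1% against 14.0% of all genes) and 1 fell (Zmat3, 7.69% against 15.2%). Genes of the lists beyond the most abundant 3 are named because they were called, and so after their values were seen.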

How the data were processed

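PolyA RNA was sequenced from directional libraries, per the labels' protocols; the submitters' processing notes name the build mm9 and the tools TopHat, featureCounts, Novoalign, bedtools and SAMtools, without roles. The authors deposited raw read counts per gene, in total and by allele, without normalization, and the exon length in bases. The strand setting is not given in the sources used here. Another 6 count columns, for a day with no RNA sample, were not used. Counts were tested in R 4.3.3 with edgeR 4.0.16 (TMM, filterByExpr, quasi-likelihood F test, Benjamini-Hochberg adjustment over all 15179 genes, threshold 0.05), after the code was tested on simulated data; limma 3.58.1 and DESeq2 1.42.0 were alternatives. Residual degrees of freedom were 9 (stage), 4 (RepB against WT) and 7 (slope). SEs are the log2 change over the root of F.

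The same day labels pair a RepB with a WT library. Per-day differences used log2(CPM + 0.5). The rule for named genes took the 8 largest rises and falls past the threshold against day 0, 5 each way in the other tests, the 4 highest and lowest per kilobase, the paralogs with their parents, Rplp0, Rplp1, Rplp2, Rpsa and Rpl27a, members whose allelic share is described, and up to 3 genes per list. Members and lists were chosen with earlier results of these data known. Counts and medians are over all members, but a few genes are not reported here by name or drawn as single genes.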

Additional observations from a re-analysis of the deposited data

How the results depend on the processing

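No called result changed sign under any alternative run. Against day 0, 38 members rose and 12 fell with the replicate block by day, where 31.7% and 32.3% of all genes did. With RepB alone and WT alone the median log2 change of the members was 0.334 and 0.524. With a day or a library left out, 15 to 32 rose and 3 to 5 fell. There 8.56% to 17% of all genes rose and 12.2% to 17.6% fell. The libraries left out were RepB day 8, RepB day 10 and WT day 8, chosen after seeing the data. The cause of these shifts was not tested. With each line alone 1 library stands at day 0, and its spread is assumed to be that of the later days. For RepB against WT, no filter on low counts gave 1 higher and 6 lower, where 1.75% and 1.21% of all genes tested were. Days left out gave 0 to 2 higher (2 without day 8, Rpl39l and Rps14, where 2.48% of all genes were). They gave 0 to 1 lower: 1 without day 5 (Rpl37a), where 0.382% of all genes were, and 1 without day 6, where 0.204% were. No replicate block gave 0 and 0, a fit that also called 0 of all genes (229 higher and 117 lower with the block) and so says nothing of stability. Less day 0, days left out gave 0 to 1 lower (1 without day 6, where 0.0132% of all genes were) and 0 higher. Falls along days 5 to 10 numbered 25 with library totals alone and 25 with those totals less the members' counts, where 29.6% and 29.8% of all genes fell. They numbered 7 to 35 with a day or library left out (32 without the WT day 8 library), where 17.8% to 27% of all genes fell. Rises numbered 0 to 1 (Rps7 without day 5, where 22.4% of all genes rose). The summed share over days 5 to 10, as a multiple of day 0, was 1.32 in RepB and 1.49 in WT without the 5 most abundant members, and 1.41 and 1.51 without the 100 most abundant other genes. The fewest counts of a library, 3594551, set the highest floor, 0.89 CPM.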
